A study of Mus musculus with 11 samples.

Results

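The receptor genes of the common gamma-chain cytokines were examined for open chromatin. They were *Il7r*, *Il2ra*, *Il2rb*, *Il15ra*, *Il4ra* and *Il21r*, 6 of the 21911 protein-coding genes of the annotation, and for each gene all ATAC-seq peaks were taken that overlapped its mm10 gene body extended by 20 kb on each side. ATAC-seq marks accessible chromatin by the insertion of a transposase. Peaks of all 9 libraries that overlapped were merged into 71400 intervals, of which 49 lay in the 6 windows. An interval was called open in a library that had a peak in it, and a missing peak says only that none was called.

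The study examined the *Zbtb16* locus, which encodes PLZF, in cells that express this factor and in control cells of the same tissue. All cells were freshly sorted from C57BL/6 mice that, by the study's methods, were 4 to 8 weeks old, and no treatment is named for these samples. From the thymus came CD4SP thymocytes (conventional CD4 single positive T cells, 2 libraries) and NKT (innate-like T cells enriched with a CD1d-αGalCer tetramer, 2 libraries). From the bone marrow came CLP (common lymphoid progenitors, 3 libraries) and ILCP (innate lymphoid cell precursors, 2 libraries). CLP were sorted as lineage-negative IL-7Rα+ cells with intermediate cKit and Sca-1 and high Flt3, and ILCP as lineage-negative IL-7Rα+ α4β7+ cells that carried the eGFP of a *Zbtb16* reporter allele. The product of *Il7r* was thus itself a sorting marker of both marrow types. Tissue and cell type go together in this design, so that differences between thymic and marrow libraries cannot be told apart from differences between lineages.

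The receptors share the common gamma chain, encoded by *Il2rg*, which pairs with JAK3, while JAK1 sits on the partner chains. Signals pass mainly through STAT5 for IL-2, IL-7 and IL-15, STAT6 for IL-4 and STAT3 for IL-21. IL-7 sustains lymphoid progenitors and resting T cells, IL-15 sustains NKT and other innate-like lymphocytes, and the high-affinity receptor for IL-2 forms when the α chain is added to the β and γ chains.

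The lists held between 19343 peaks (CLP replicate 1) and 41535 peaks (CLP replicate 2), and the 2 ILCP lists held 26328 and 25771. Within a library, each peak was given a percent rank, the percent of that library's peaks with a score at least as high, so that a low value is a high rank. As the lists differ in length, ranks were also compared by order number, counted from 1 at the highest score of the library, and a split between types that was lost on that scale is given as such. Scores piled up at 3100, which 58 to 1265 peaks per library held, so peaks at this value could not be ordered among themselves. The labels could be checked at marker start sites: all 8 T cell markers had a peak within 1 kb of the start in every CD4SP and NKT library, and *Cd3e*, *Cd3d*, *Cd3g* and *Zap70* had none in any marrow library. The other 4 were also open in marrow: *Lat* in all 5 libraries, *Bcl11b* in 2 CLP and both ILCP, *Cd5* in 3 CLP and *Cd6* in 2 CLP. Of the CLP markers, *Rag1* had a start-site peak in the 3 CLP libraries alone, *Flt3* in 3 CLP and both ILCP, *Kit* in these and 1 NKT, *Dntt* in 2 CLP and 1 CD4SP, and *Notch1* in all 4 thymic, 2 CLP and 1 ILCP. Of the ILCP markers, *Gata3*, *Id2*, *Tox* and *Pdcd1* had one in all 9 libraries and did not set ILCP apart, and *Zbtb16*, also an NKT marker, had one in both NKT, both ILCP, 1 CLP and no CD4SP library. The CD4SP markers *Cd4*, *Trat1* and *Ccr7* had one in all 4 thymic libraries, *Trat1* also in both ILCP and *Ccr7* in both ILCP and 2 CLP. The NKT markers *Klrb1c* and *Klrk1* had no start-site peak in any library, and *Tbx21* had one in 1 NKT library. Of markers of other cells, 3 of 6 for B cells, 2 of 6 for myeloid cells and 1 of 4 for erythroid cells had none in any library, among them *Pax5*, *Cd79a*, *Elane*, *Cebpe* and *Gata1*. The others had one in 1 to 9 libraries, with *Ebf1* and *Klf1* in all 9, *Cebpa* in 8, and *Itgam* in the 4 thymic libraries. The part of other cells in the results was not tested. In bulk chromatin, fewer cells with an open site and less access per cell cannot be told apart.

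Centres of 4 intervals and a pair of promoters are shown because the comparisons below turn on them. Their labels do not name every library with a peak. *Il2ra* +15.0 kb was also open in all thymic libraries, *Il7r* -3.7 kb in CLP replicate 2 and *Il4ra* +3.7 kb in NKT replicate 1. Each interval is given by 300 bases around the median of the midpoints of its peaks, which can differ from the midpoint used for its distance. These bases were read from GRCm38.p6 (mm10) on the plus strand. Each promoter is given by the 250 bases before the RefSeq start of the gene, on the strand of the gene. Capitals mark a Runx match (TGTGGT or TGCGGT) at *Il2ra* +15.0 kb, both *Il4ra* intervals and the *Il2ra* promoter, a TCF match (CTTTGAA or CTTTGTT) at *Il7r* -3.7 kb, and an ETS match (AGGAAGT) in the *Il7r* promoter, each on either strand.
Il7r -3.7 kb (chr15:9533419-9533718, upstream, open in both ILCP and all thymic libraries): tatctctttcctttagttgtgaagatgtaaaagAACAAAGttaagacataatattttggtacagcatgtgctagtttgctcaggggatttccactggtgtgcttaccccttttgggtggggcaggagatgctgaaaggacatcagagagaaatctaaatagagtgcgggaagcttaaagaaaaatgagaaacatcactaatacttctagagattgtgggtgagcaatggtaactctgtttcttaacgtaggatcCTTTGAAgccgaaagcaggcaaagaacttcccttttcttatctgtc
Il2ra +15.0 kb (chr2:11657690-11657989, intron 1, open in ILCP and not in CLP): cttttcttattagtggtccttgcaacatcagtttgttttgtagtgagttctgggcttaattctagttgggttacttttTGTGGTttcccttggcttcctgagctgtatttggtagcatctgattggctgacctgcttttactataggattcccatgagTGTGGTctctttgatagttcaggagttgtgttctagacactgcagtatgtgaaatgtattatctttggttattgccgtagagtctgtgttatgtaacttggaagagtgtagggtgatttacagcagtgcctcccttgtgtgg
Il4ra +3.7 kb (chr7:125555589-125555888, intron 1, open in CLP and not in ILCP): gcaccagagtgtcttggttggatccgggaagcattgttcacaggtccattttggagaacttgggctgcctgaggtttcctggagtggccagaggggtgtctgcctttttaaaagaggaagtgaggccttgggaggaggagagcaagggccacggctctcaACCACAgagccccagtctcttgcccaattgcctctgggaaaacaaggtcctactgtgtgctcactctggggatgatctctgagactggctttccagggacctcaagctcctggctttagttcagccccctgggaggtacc
Il4ra +36.8 kb (chr7:125588791-125589090, downstream, ranking higher in NKT, CD4SP and ILCP than in CLP): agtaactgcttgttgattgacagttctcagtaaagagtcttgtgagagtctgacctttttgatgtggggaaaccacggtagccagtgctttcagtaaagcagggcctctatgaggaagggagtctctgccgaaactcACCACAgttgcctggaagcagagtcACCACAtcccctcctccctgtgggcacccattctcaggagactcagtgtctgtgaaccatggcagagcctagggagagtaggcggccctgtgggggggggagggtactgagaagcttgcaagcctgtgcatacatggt
Il7r promoter (chr15:9529877-9530126, minus strand, open in 8 of 9 libraries): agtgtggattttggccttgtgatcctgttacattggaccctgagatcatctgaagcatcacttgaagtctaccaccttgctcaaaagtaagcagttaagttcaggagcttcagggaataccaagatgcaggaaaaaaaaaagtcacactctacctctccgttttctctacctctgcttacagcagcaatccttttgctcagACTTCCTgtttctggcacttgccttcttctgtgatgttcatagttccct
Il2ra promoter (chr2:11642542-11642791, plus strand, open in thymic libraries only): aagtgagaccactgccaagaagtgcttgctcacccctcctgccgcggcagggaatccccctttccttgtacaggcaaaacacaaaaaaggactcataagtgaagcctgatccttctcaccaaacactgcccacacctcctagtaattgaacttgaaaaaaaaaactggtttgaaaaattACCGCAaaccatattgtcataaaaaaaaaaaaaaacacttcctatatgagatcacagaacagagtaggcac

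*Il7r* encodes the α chain shared by the receptors for IL-7 and TSLP. It spans chr15:9505788-9530176 on the minus strand with 8 exons, no other gene body lay in its window, and the window held 7 intervals. Peaks numbered 5 and 5 in CD4SP, 6 and 3 in NKT, 1, 4 and 3 in CLP, and 4 and 2 in ILCP. The counts of NKT overlapped those of CD4SP, and those of ILCP overlapped those of CLP. The means of 4.50 peaks in NKT and 5 in CD4SP gave p = 1 (exact permutation test, two-sided; the smallest p that 2 against 2 allows is 0.333). ILCP had 0.333 more peaks than CLP on average (p = 1 by the exact permutation test, which cannot go below 0.1 here). The difference was 1.5 with an equal number of peaks per library (p = 0.1, exact permutation test).

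The peak over the *Il7r* start site (chr15:9529275-9530528) was called in every CD4SP, NKT and CLP library and in ILCP replicate 1, but not in ILCP replicate 2. Its percent rank was 29.0 and 35.5 in CD4SP, 44.0 and 38.0 in NKT, 73.2, 40.8 and 42.2 in CLP, and 64.5 in the ILCP library that had it. ILCP, although sorted for the protein, was the only type in which a library lacked this peak. An upstream interval at -3.7 kb (chr15:9533001-9534102) showed another order, with percent ranks of 25.5 and 18.5 in ILCP, 31.1 and 36.5 in NKT, and 47.2 and 42.4 in CD4SP. Among CLP, 1 of 3 libraries had a peak there, with a percent rank of 97.3, near the bottom of its list. Both ILCP libraries thus ranked this interval higher than any other library did, and it did not count as open in ILCP and not in CLP only because of that low peak.

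Intron 2 of *Il7r* held an interval at +5.8 kb (chr15:9523512-9524571) that was open in both ILCP libraries, at percent ranks of 38.7 and 44.1, and in no CLP library. It was also called in CD4SP replicate 1 and NKT replicate 1, at 59.5 and 71.3. The intron 1 interval at +1.4 kb (chr15:9527728-9529174) had percent ranks of 19.9 and 29.4 in CD4SP, 34.2 and 56.2 in NKT, 50.7 in both CLP libraries that had it, and 74.1 in ILCP replicate 1. CD4SP ranked it above NKT without overlap, the reverse of the upstream interval. The interval at -5.6 kb was called in 3 thymic libraries and no marrow library, and the one at +37.6 kb in CLP replicates 2 and 3 alone.

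**Figure D1:**
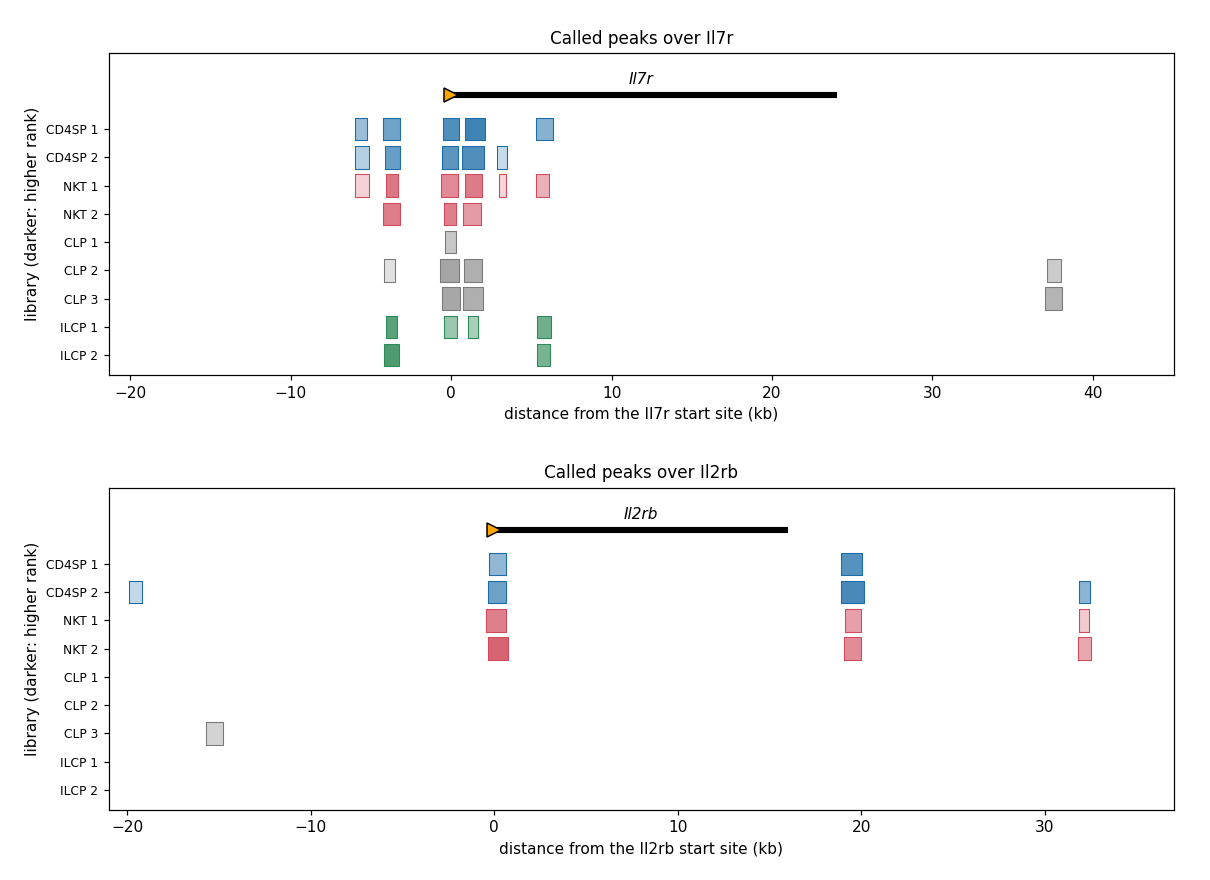
Called ATAC-seq peaks (boxes, 1 row per library) over Il7r (top) and Il2rb (bottom), placed by distance from the start site in kb in the direction of transcription, with the gene body as a black bar and the start as an orange arrow. Darker boxes rank higher in their library, and no Il2rb start-site peak was called in the 5 marrow libraries.

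*Il2rb* encodes the β chain of the IL-2 and IL-15 receptors, on which NKT depend for IL-15. It spans chr15:78479256-78495271 on the minus strand with 10 exons, and its window, which also holds the start site of *Tmprss6*, had 5 intervals. Peaks numbered 2 and 4 in CD4SP, 3 and 3 in NKT, 0, 0 and 1 in CLP, and 0 and 0 in ILCP. Every thymic library lay above every marrow library, with means of 3 ± 0.816 (SD, n = 4) and 0.2 ± 0.447 (SD, n = 5). The difference of 2.80 peaks gave p = 0.00794 in the exact permutation test, two-sided, the smallest p this design allows, and 0.0618 after Benjamini-Hochberg adjustment over 17708 genes with a peak in any library. Across those genes, 12.8% had more peaks in every thymic than in every marrow library. The difference at *Il2rb* was 1.5 with an equal number of peaks per library (p = 0.00794, exact permutation test).

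The start-site interval of *Il2rb* (chr15:78494549-78495723, exon 1) was open in all 4 thymic libraries and no marrow library, as was one downstream at +19.5 kb (chr15:78475153-78476407). Percent ranks at the start were 65.4 and 45.7 in CD4SP and 37.4 and 18.9 in NKT. At +19.5 kb they were 32.4 and 24.7 in CD4SP and 59.6 and 45.9 in NKT. The order of the types was thus opposite at the promoter, where NKT ranked higher without overlap, and at the downstream interval, where CD4SP did. The exact permutation test gave p = 0.333 for both, the smallest it can give, with differences of -27.4 and 24.2 percentage points (NKT minus CD4SP) and no adjusted p below 0.05 over 24221 intervals. Another interval, at +32.2 kb inside the body of *Tmprss6*, was called in CD4SP replicate 2 and both NKT libraries.

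*Il2ra* encodes the α chain of the IL-2 receptor, CD25, which marks activated and regulatory T cells and early thymocytes. It spans chr2:11642807-11693193 on the plus strand with 8 exons, and its window held 13 intervals, of which 2, at the start site and in intron 1 of *Il15ra*, also lay in the window of that gene. Peaks numbered 11 and 10 in CD4SP, 6 and 7 in NKT, 5, 6 and 6 in CLP, and 6 and 7 in ILCP. CD4SP had more peaks than NKT without overlap, by 4 on average (exact permutation test, two-sided, p = 0.333, the smallest possible), which 6.16% of genes showed. Peaks did not separate ILCP from CLP (difference 0.833, p = 0.6, exact permutation test).

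The start site of *Il2ra* (chr2:11642123-11643252) had a peak in all 4 thymic libraries and in none of the 5 marrow libraries. Its percent ranks were 47.2 and 38.9 in CD4SP and 59.7 and 55.0 in NKT. Of the 6 receptors, *Il2ra* and *Il2rb* were those with a start-site peak in thymic libraries only, each 4 of 4 against 0 of 5 (p = 0.00794, exact permutation test, two-sided; 0.229 after adjustment over 13632 genes). Such a split was found at 1.94% of genes. With an equal number of peaks per library, the *Il2ra* peak remained in fewer thymic libraries and the difference dropped to 0.5 of libraries (p = 0.167, exact permutation test), whereas for *Il2rb* it was 0.75 (p = 0.0476, exact permutation test).

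Although its promoter had no peak there, *Il2ra* had a high-ranking upstream interval in CLP. The interval at -6.5 kb (chr2:11634679-11637992) was 3314 bp wide and open in all 9 libraries, with percent ranks of 4.71, 3.32 and 3.13 in CLP, 32.6 and 22.3 in ILCP, 44.5 and 43.1 in CD4SP, and 67.1 and 68.9 in NKT. No type overlapped another. In CLP replicates 2 and 3 the peak sat at the score of 3100 that 1265 and 1152 peaks of these lists shared, and it was 2618 and 2576 bp wide, against 817 and 711 bp in NKT. CLP ranked above ILCP by 23.7 percentage points (p = 0.1, exact permutation test, the smallest possible), and marrow above thymic libraries by 42.7 (p = 0.0159, exact permutation test, two-sided; 0.0635 after adjustment over 9464 intervals). In CD4SP the same interval held 3 separate peaks in each library, and in NKT 1, which is part of the difference in peak number between them.

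Intron 1 of *Il2ra* carried several further intervals. The one at +10.8 kb (chr2:11652884-11654310) was open in all 9 libraries, with percent ranks of 11.2 and 17.5 in CD4SP, 17.6 and 23.4 in NKT, 27.3, 27.8 and 28.1 in CLP, and 25.8 and 32.0 in ILCP. Thymic libraries ranked it above marrow libraries without overlap, with means of 17.4 ± 4.99 (SD, n = 4) and 28.2 ± 2.30 (SD, n = 5) and p = 0.00794 in the exact permutation test and 0.0490 after adjustment over 9464 intervals. Among those intervals 23.7% ranked higher in every thymic library. The difference was -10.7 percentage points (thymic minus marrow). With an equal number of peaks per library it was -11.5 and the call was lost (p = 0.238, exact permutation test). Order number is the same test on another scale here, as the peak stood within the first 19343 in every library. It stood at 3766 to 9077 in the thymic libraries and at 5273 to 11529 in the marrow libraries, which overlap (p = 0.238, exact permutation test).

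At +15.0 kb (chr2:11657273-11658380) the percent ranks were 23.6 and 37.3 in CD4SP, 46.5 and 48.9 in NKT and 76.1 and 58.9 in ILCP, with no peak in any CLP library. The interval at -19.4 kb (chr2:11623021-11623786) was open in both ILCP libraries, at 58.5 and 75.4, and in no other library, the only one of the 49 with that pattern. A further interval, at +21.4 kb, was open in all 9 libraries at percent ranks from 36.9 to 72.5. The one at +19.8 kb was called in CLP replicates 2 and 3 alone. All 5 *Il2ra* intervals open in the 4 thymic libraries (-6.5, -0.1, +10.8, +15.0 and +21.4 kb) ranked higher by percent rank in both CD4SP libraries than in both NKT libraries. By order number this held for 4, while at +10.8 kb the types overlapped, at 3766 and 6623 in CD4SP and 6120 and 9077 in NKT (p = 0.667, exact permutation test). As these intervals were measured in the same 4 libraries, they are no independent evidence for one another.

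*Il15ra* encodes the α chain that binds IL-15 and presents it to cells with the β and γ chains. It spans chr2:11705290-11734317 on the plus strand with 7 exons, and its window held 3 intervals. Peaks numbered 1 in each thymic and each ILCP library and 2, 2 and 3 in CLP, so CLP lay above ILCP without overlap by 1.33 peaks (p = 0.1, exact permutation test, the smallest possible), as for 9.7% of genes. The start-site interval (chr2:11704913-11706693) was open in all 9 libraries, at percent ranks of 37.2 and 31.1 in CD4SP, 46.5 and 39.1 in NKT, 87.0, 17.9 and 19.2 in CLP, and 21.2 and 60.8 in ILCP. Within CLP and within ILCP the spread was larger than any difference between types. The interval that set CLP apart was downstream at +34.4 kb (chr2:11739169-11740298), with percent ranks of 66.3, 43.2 and 40.7 in CLP and no peak in any other library, a pattern of 3.89% of all intervals.

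**Figure D2:**
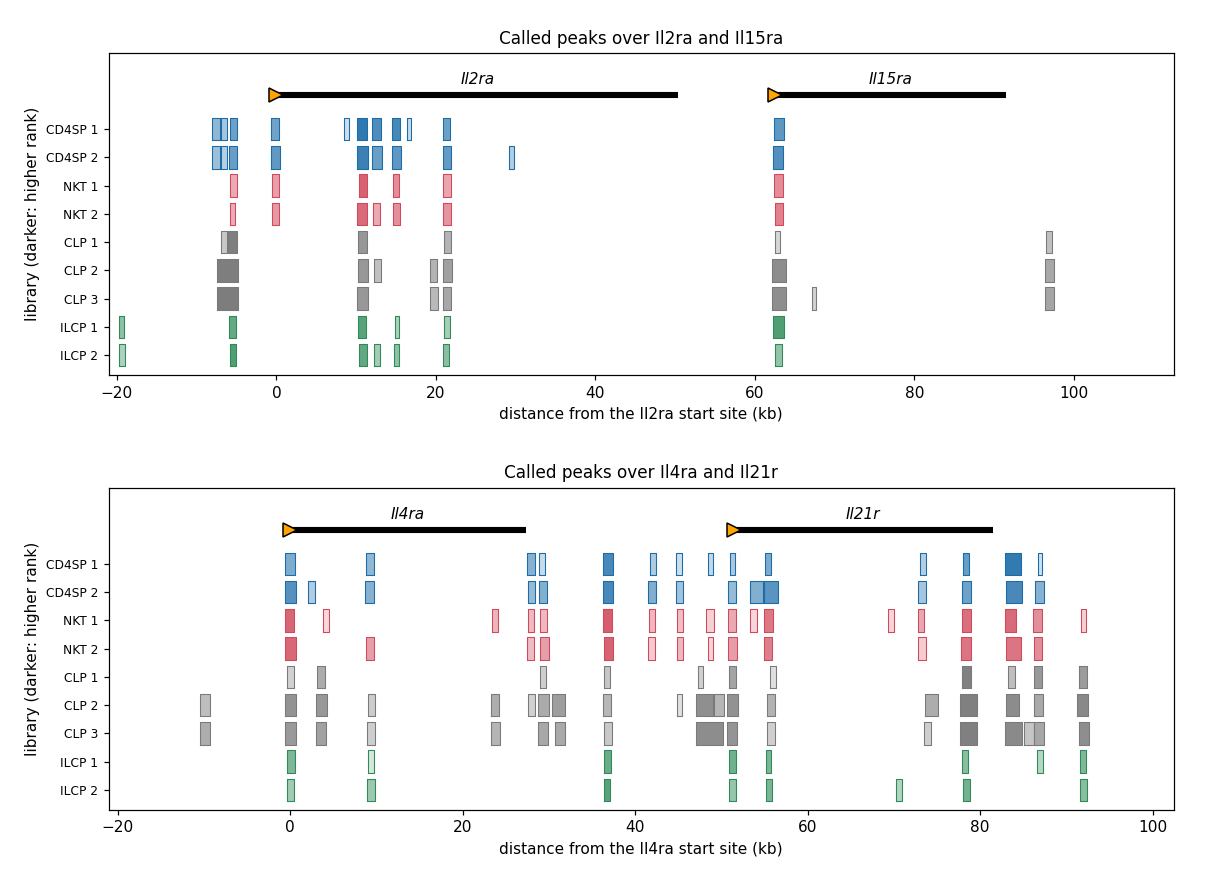
Called ATAC-seq peaks (boxes, 1 row per library) over the neighbouring genes Il2ra and Il15ra (top) and Il4ra and Il21r (bottom), placed by distance in kb from the start site of the first gene, with gene bodies as black bars and starts as orange arrows. Darker boxes rank higher in their library: the box upstream of Il2ra is darkest and widest in CLP, where the Il2ra start has none.

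*Il4ra* encodes the α chain of the receptors for IL-4 and IL-13, and IL-4 is a cytokine that NKT produce. It spans chr7:125552120-125579474 on the plus strand with 11 exons, and its window held 13 intervals. Peaks numbered 7 and 8 in CD4SP, 8 and 7 in NKT, 5, 11 and 9 in CLP, and 3 and 3 in ILCP. Both thymic types had a mean of 7.5 peaks, and ILCP lay below every CLP library by 5.33 peaks on average (p = 0.2, exact permutation test, where 0.1 is the smallest possible). ILCP minus CLP was -2.83 with an equal number of peaks per library (p = 0.1, exact permutation test).

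The *Il4ra* start-site interval (chr7:125551486-125552835) was open in all 9 libraries, with percent ranks of 54.5 and 32.4 in CD4SP, 20.2 and 21.4 in NKT, 82.0, 23.6 and 30.4 in CLP, and 48.1 and 69.4 in ILCP. NKT ranked it above CD4SP without overlap (difference -22.6 percentage points, p = 0.333, exact permutation test, the smallest possible). In intron 1, the +3.7 kb interval (chr7:125555086-125556649) was open in the 3 CLP libraries, at 47.1, 28.6 and 37.0, in neither ILCP library and, of the thymic libraries, only in NKT replicate 1, at 98.7. Past the end of the gene, the +29.4 kb interval (chr7:125580877-125582119) was open in every library except the 2 ILCP libraries, at percent ranks from 43.0 to 95.0.

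Between *Il4ra* and *Il21r*, the interval at +36.8 kb from the *Il4ra* start (chr7:125588351-125589553) was open in all 9 libraries. Its percent ranks were 24.5 and 24.4 in CD4SP, 14.3 and 17.9 in NKT, 72.1, 57.7 and 74.0 in CLP, and 36.0 and 26.5 in ILCP. By percent rank the types did not overlap, but the place of ILCP rested on the length of its lists. By order number the peak stood at 9467 and 6820 in ILCP, 8236 and 9243 in CD4SP, 4951 and 6935 in NKT, and 13953 to 29691 in CLP, so that ILCP overlapped both thymic types and CLP stood below all of them. ILCP ranked it above CLP (difference of percent ranks -36.7, p = 0.1, exact permutation test, the smallest possible), and thymic above marrow libraries (difference -33.0, p = 0.0397, exact permutation test; 0.106 after adjustment over 9464 intervals). By order number ILCP still stood above CLP without overlap (p = 0.2, exact permutation test), and thymic and marrow libraries overlapped (p = 0.103, exact permutation test). It was 1 of 2 intervals, of the 10 open in all CLP and ILCP libraries, that ranked higher in ILCP.

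*Il21r* encodes the receptor chain for IL-21, a cytokine of follicular helper T cells and NKT. It spans chr7:125603429-125633570 on the plus strand with 9 exons, its window overlapped that of *Il4ra*, and with 15 intervals it held the most of the 6 genes. Peaks numbered 10 and 10 in CD4SP, 13 and 10 in NKT, 8, 12 and 11 in CLP, and 6 and 6 in ILCP. ILCP again lay below every CLP library, by 4.33 peaks (p = 0.2, exact permutation test, 0.1 the smallest possible). ILCP minus CLP was -2.33 with an equal number of peaks per library (p = 0.1, exact permutation test).

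The start-site interval of *Il21r* (chr7:125602742-125604015) was open in all 9 libraries and, unlike those of *Il2ra* and *Il2rb*, ranked higher in marrow. Percent ranks were 79.0 and 67.1 in CD4SP, 66.9 and 57.9 in NKT, 39.6, 22.5 and 24.6 in CLP, and 40.3 and 62.7 in ILCP. The thymic and marrow means of 67.7 ± 8.67 (SD, n = 4) and 37.9 ± 16.1 (SD, n = 5) differed by 29.8 (p = 0.0238, exact permutation test; 0.0757 after adjustment over 9464 intervals), with ILCP replicate 2 inside the thymic range. By order number the 5 marrow libraries stood above the 4 thymic libraries without overlap (p = 0.00794, exact permutation test). The thymic peaks stood at 22457 to 26591, beyond the 19343 peaks of CLP replicate 1. Any peak called in that library had to stand above them, so list length fixed part of this split. Just upstream, the -2.7 kb interval (chr7:125599217-125602421), which was 3205 bp wide, was open in all CLP at 81.0, 20.2 and 18.1 and in neither ILCP library. It was also called in 3 thymic libraries, at percent ranks of 91.6, 93.6 and 95.4. By contrast, the -9.5 kb interval (chr7:125593608-125594518) was open in all 4 thymic libraries, at percent ranks from 56.0 to 89.8, and in no marrow library.

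Exon 8 of *Il21r* lay at the middle of a 2029 bp interval, +27.2 kb from the start (chr7:125629761-125631789), that ranked among the top peaks of CLP. Its percent ranks were 6.66, 6.12 and 5.94 in CLP, 55.3 and 42.6 in ILCP, 42.2 and 46.3 in CD4SP, and 26.0 and 30.4 in NKT. CLP stood above ILCP by 42.7 percentage points and overlapped no other type (p = 0.1, exact permutation test, the smallest possible; 0.454 after adjustment over 12171 intervals). Farther downstream, the +32.4 kb interval (chr7:125634971-125636997) was open in all libraries but the 2 of ILCP. There the percent ranks were 12.9 and 24.4 in CD4SP, 22.3 and 30.5 in NKT and 65.1, 17.2 and 15.1 in CLP. The +40.5 kb interval lay in the body of *Gtf3c1* and ranked higher in CLP, at 32.2, 14.5 and 18.5, than in ILCP, at 48.5 and 55.4.

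**Figure D3:**
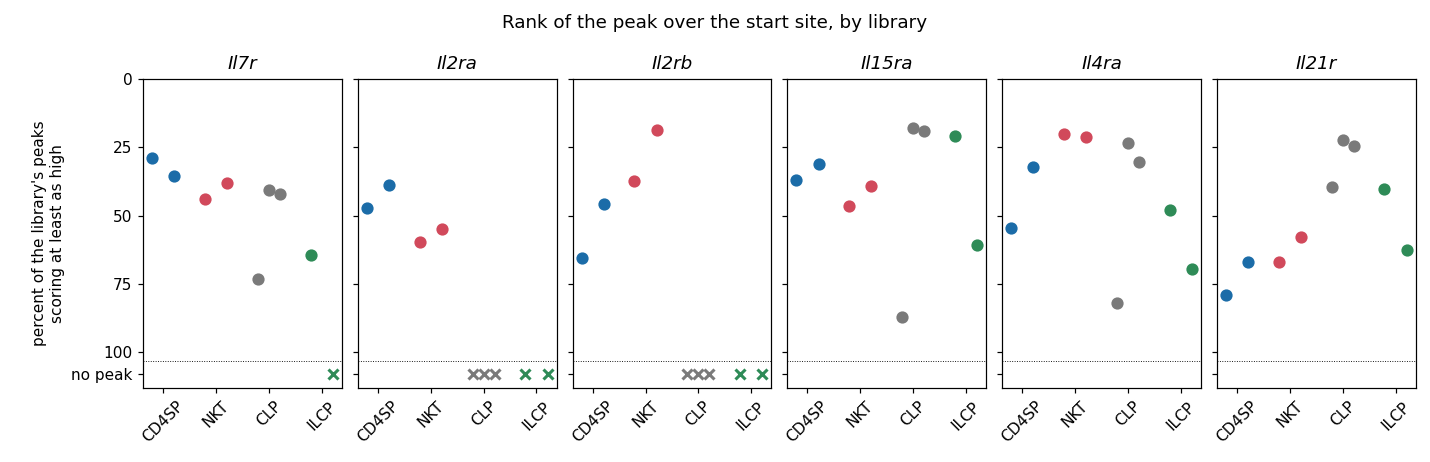
Percent rank of the peak over the start site of each receptor gene (y axis, percent of the library's peaks scoring at least as high, inverted so that high-ranking peaks are at the top), 1 point per library by cell type. Crosses stand for libraries without a start-site peak, which for Il2ra and Il2rb were the 5 marrow libraries.

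Over the 6 windows together, peaks numbered 32 and 34 in CD4SP, 33 and 27 in NKT, 18, 30 and 28 in CLP, and 18 and 17 in ILCP. PLZF-expressing and control types of the same tissue were not separated (NKT minus CD4SP -3, p = 0.667; ILCP minus CLP -7.83, p = 0.3; sum of both -10.8, p = 0.133; exact permutation tests, two-sided, with smallest possible p of 0.333, 0.1 and 0.0167). With an equal number of peaks per library the sum was -6 (p = 0.0333, exact permutation test), fewer peaks in the PLZF-expressing types. Its parts were then -3.5 for NKT minus CD4SP (p = 0.333) and -2.5 for ILCP minus CLP (p = 0.2, exact permutation tests). Thymic libraries held 31.5 ± 3.11 peaks (SD, n = 4) and marrow libraries 22.2 ± 6.26 (SD, n = 5), a difference of 9.3 (p = 0.0476, exact permutation test). That call did not hold when any 1 library but NKT replicate 2 was left out, and with an equal number of peaks per library the difference was -1.25 (p = 0.365, exact permutation test).

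Counted by gene, 1 of the 6 windows had more peaks in every CD4SP than in every NKT library (6.16% of genes) and 0 the reverse (8.83%), 3 had more in every CLP than in every ILCP library (9.7%) and 0 the reverse (4.53%), and 1 had more in every thymic than in every marrow library (12.8%) and 0 the reverse (3.55%). The 3 with more in CLP were *Il15ra*, *Il4ra* and *Il21r*, and the windows of the last 2 overlap, so some peaks count in both. At the start sites, only the split of thymic from marrow libraries occurred, at 2 of 6 genes. The other splits occurred at 0 of 6, where 1.1% of genes had a start-site peak in every NKT and no CD4SP library, 0.403% in CD4SP and not NKT, 0.513% in ILCP and not CLP, 2.64% in CLP and not ILCP, and 1.53% in marrow and not thymic libraries.

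**Figure D4:**
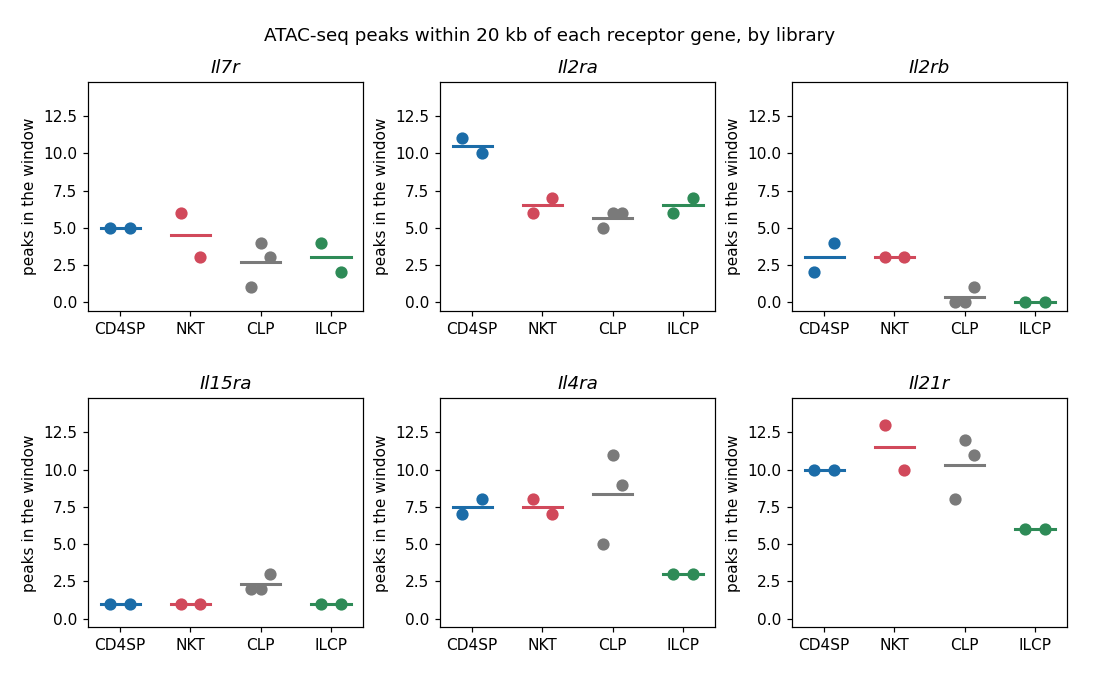
Number of ATAC-seq peaks overlapping each receptor gene extended by 20 kb (y axis), 1 point per library, with the mean of each cell type as a bar. The CD4SP libraries had the most peaks at Il2ra (11 and 10), the marrow libraries had 0 or 1 at Il2rb, and the ILCP libraries had the fewest at Il4ra and Il21r (3 and 6 peaks in each library).

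Of the 49 intervals, 13 lay upstream of the gene to which they were assigned, 21 in introns, 4 at exons and 11 downstream, and 9 (18.4%) were open in all 9 libraries, against 13.3% of all intervals. In the thymus, 0 of 40 intervals were open in both NKT and no CD4SP library and 0 in both CD4SP and no NKT library, where 6.48% and 5.21% of all intervals were. These zeros moved with the libraries used: with 1 library left out the counts were 0 to 4, with 4 without NKT replicate 2 and 1 without either CD4SP library, and 0 to 3, with 3 without CD4SP replicate 1, 2 without CD4SP replicate 2 or NKT replicate 2 and 1 without NKT replicate 1. With an equal number of peaks per library they were 1 and 4. In the marrow, 3 of 35 (8.57%) were open in both ILCP and no CLP library, close to the 8.67% of all intervals, and 5 of 35 (14.3%) were open in the 3 CLP and no ILCP library, against 8.18%. The 3 were at *Il7r* +5.8 kb and *Il2ra* -19.4 and +15.0 kb. The 5 were at *Il15ra* +34.4 kb, *Il4ra* +3.7 and +29.4 kb and *Il21r* -2.7 and +32.4 kb. Without CLP replicate 1, the shortest list, 11 intervals were open in CLP and not in ILCP. All 4 thymic and no marrow libraries shared 4 intervals (7.04% of all intervals did so), and 0 had the reverse pattern (2.04%). Open in every library of 1 type and in no other library were 1 interval for CLP (3.89% of all intervals), 1 for ILCP (3.66%), 0 for CD4SP (2.65%) and 0 for NKT (1.96%).

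Within the thymus the types could be compared by rank. Of the 23 intervals open in all 4 thymic libraries, 7 (30.4%) ranked higher in both NKT libraries and 10 (43.5%) in both CD4SP libraries, where 19.9% and 20.4% of 24221 intervals did. The 7 were the start sites of *Il2rb*, *Il4ra* and *Il21r*, *Il7r* -3.7 kb, *Il4ra* +36.8 kb and *Il21r* +27.2 and +34.8 kb. The 10 were the 5 of *Il2ra*, the start sites of *Il7r* and *Il15ra*, *Il7r* +1.4 kb, *Il2rb* +19.5 kb and *Il4ra* +27.9 kb. By order number the 7 stayed apart and 9 of the 10 did, the exception being *Il2ra* +10.8 kb. Of 10 intervals open in all marrow libraries, 5 ranked higher in CLP (24.5% of 12171 intervals) and 2 in ILCP (15%), and by order number 4 of the 5, without *Il2ra* +21.4 kb, and both of the 2. Of the 9 open in all 9 libraries, 2 ranked higher in every thymic library (23.7% of 9464 intervals) and 1, *Il2ra* -6.5 kb, in every marrow library (7.54%). By order number neither of the 2, *Il2ra* +10.8 kb and *Il4ra* +36.8 kb, separated the tissues, while *Il2ra* -6.5 kb and the *Il21r* start site both did, higher in marrow. For the *Il21r* start site, part of that split was fixed by the short list of CLP replicate 1.

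**Figure D5:**
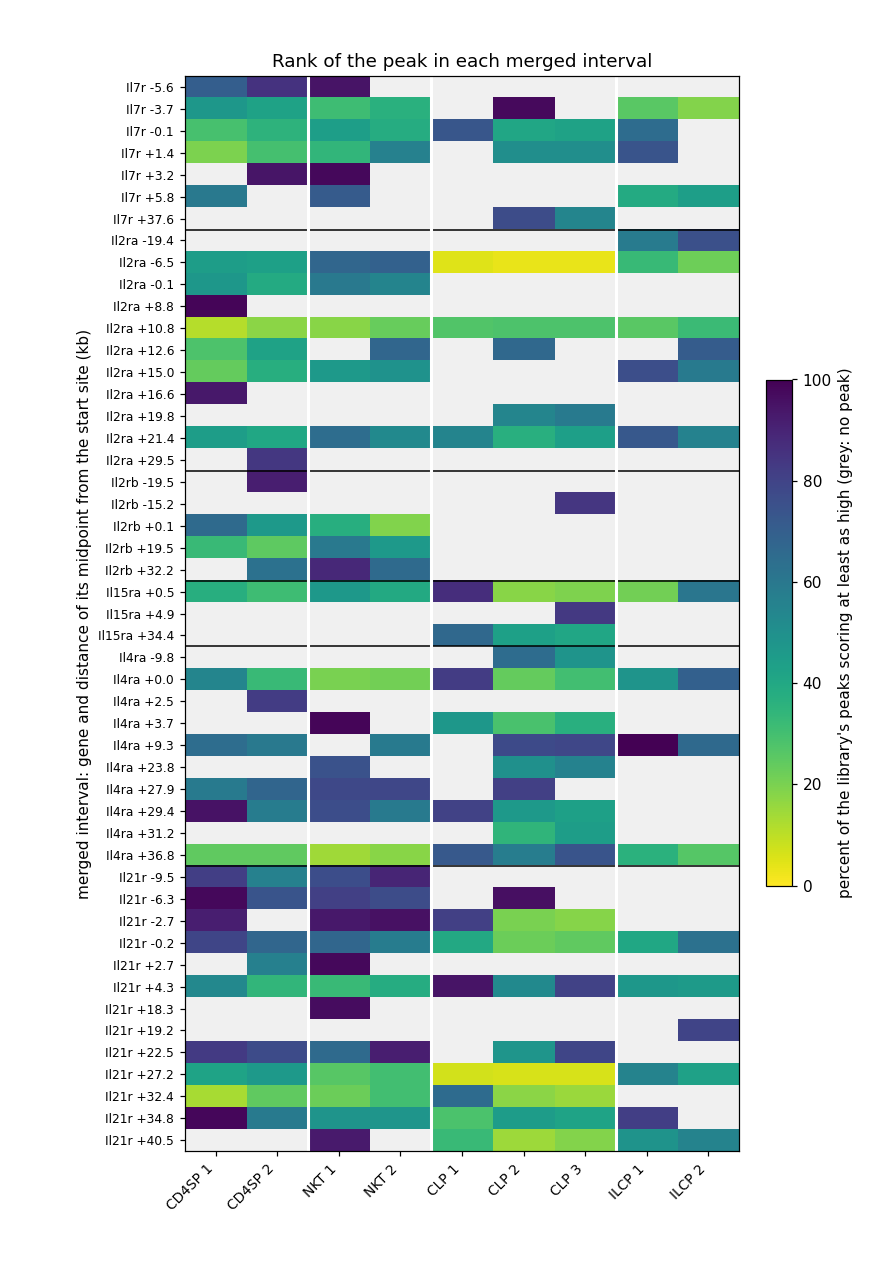
Percent rank of the highest peak in each of the 49 merged intervals (rows, named by gene and distance of the midpoint from the start site in kb) in each of the 9 libraries (columns), with grey for no peak. Yellow marks the highest-ranking peaks, and the brightest cells are the CLP libraries at Il2ra -6.5 kb (3.13 to 4.71) and Il21r +27.2 kb (5.94 to 6.66).

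In the 300 bases around the median peak midpoint of each interval, Runx matches occurred in 22 of 49 (44.9%). They occurred in 37.6% of all intervals and 22.4% of RefSeq promoters of the same length. STAT matches (TTCNNNGAA) occurred in 8 (16.3%) against 8.79%, ETS matches in 12 (24.5%) against 20.6%, and T-box matches (AGGTGTGA) in 3 (6.12%) against 1.35%. Shares were 14.3% against 15.7% for TCF, 14.3% against 14.2% for a GATA motif searched as AGATAA, 12.2% against 9.90% for AP-1 (TGANTCA), 24.5% against 20.1% for an E-box (CAGCTG) and 2.04% against 3.87% for FOXO (TGTTTAC). Both strands were searched. These counts describe letters in the reference and not binding. RefSeq promoters were at hand for 5 of the 6 genes, the exception being *Il2rb*.

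A list of 21 further genes of the pathway was set beside the receptors. *Il2rg*, the common chain itself, had a start-site peak in both CD4SP, both NKT and 2 of 3 CLP libraries and in neither ILCP library, and *Jak3* in all thymic and CLP libraries and in neither ILCP library. Start sites were open in all 9 libraries for 7 of the 21 (*Jak1*, *Stat3*, *Stat5a*, *Cish*, *Socs1*, *Crlf2* and *Il15*) and in none for *Il13ra1*, *Il9* and *Il21*. That is 7 of the 18 with a start-site peak in any library (38.9%), against 49.3% of the 13632 genes with one. The genes with an interval open in both NKT and no CD4SP library were 5 of 21: *Stat6*, *Cish*, *Il2*, *Il15* and *Il4*, the last with 3 such intervals. Of all 17708 genes with a peak in the window, 14.2% had at least 1 such interval, and genes with more intervals have more chances to hold one. The start sites of *Il2* and *Il4* were open in both NKT libraries and no other. None of the 21 had an interval open in both CD4SP and no NKT library, against 10.4% of genes. In the marrow, *Il9r*, *Jak1*, *Socs3* and *Il15* (4 of 21) had an interval open in ILCP and not in CLP, against 17.1% of genes, and *Jak1*, *Jak3* and *Il15* (3 of 21) had one open in CLP and not in ILCP, against 20.3%. Peak numbers in the windows were higher in both NKT than in both CD4SP libraries for 5 of the 21 and lower for 0, against 8.83% and 6.16% of all genes.

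For each receptor, the genes most alike across the 9 libraries were found by the Pearson correlation of the base pairs covered in the window as a share of all covered base pairs, among 16379 genes. For *Il7r* they were *Slc17a5* (r = 0.958) and *Mocs2* (0.950). *Il2ra* was most like *Trdmt1* (0.955) and *2210408I21Rik* (0.954), *Il15ra* like *Zbtb33* (0.989) and *Vrk2* (0.980), *Il2rb* like *Arhgef39* (0.989), *Il4ra* like *Cep76* (0.980), and *Il21r* like *Uty* (0.922) and *Selenom* (0.913). The 9 points share their library, its depth and its cell type, and these values describe the libraries only.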

How the data were processed

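ATAC-seq was measured in 9 libraries of 4 sorted cell types. Reads of 50 bp were aligned to mm10 with Bowtie, allowing 2 mismatches, and peaks were called by MACS in each library. The submitters' processing notes also name Picard and HOMER, and the MACS version and settings are not given in the sources used here. The authors deposited each peak with a score from the peak caller, which was used for ranks within a library only. The study's methods give a range of reads for the ATAC-seq libraries but not the number in each, and the peak lists hold no read counts, so no counting error is given.

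Merging of peaks that overlapped by at least 1 bp used pandas 2.3.3 and numpy 2.4.6 (Python 3.11.15), and genes came from GENCODE M21. An interval in 2 windows was assigned to the nearer gene. Libraries, called biological replicates in the study, were compared by exact permutation of labels, two-sided, and p-values measure the spread between libraries. The thymic and marrow groups each pool 2 cell types, whose libraries were permuted freely. Their p-values and SDs thus do not measure the spread between cell types of a tissue. Adjustment was by Benjamini-Hochberg (statsmodels 0.14.6) over all genes or intervals. Sequences were read with pysam 0.24.0. Scripts were tested on simulated data. The members, lists and the rule for named genes (the 6 receptors, pathway genes with a specific interval, and the 2 genes most alike) were chosen with earlier results of these data known. Alternatives were an equal number of peaks (19343), the higher-scoring 50%, midpoints, 5 kb windows, base pairs covered, peaks per 10000, 50% coverage, any replicate, replicate blocks and each library left out. Order numbers in place of percent ranks were an alternative chosen after seeing the data. Some items under these rules are not reported here. The Runx1 ChIP-seq library and its input were not analysed here.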

Additional observations from a re-analysis of the deposited data

How the results depend on the processing

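The difference between thymic and marrow libraries over all windows (9.3 peaks) was -1.25 with an equal number of peaks per library (p = 0.365, exact permutation test, as are all p here), 2.45 with the higher-scoring 50% of peaks (p = 0.405), 7.95 with 5 kb windows (p = 0.0635), 6921 base pairs covered (p = 0.262), 1.35 per 10000 peaks (p = 0.119) and 8 to 11.2 with each library left out (p = 0.0357 to 0.0857). The summed difference of NKT and ILCP from their controls was -6 with an equal number (p = 0.0333, exact permutation test). Leaving out each library gave -6 to 0 for NKT minus CD4SP, -11.5 to -5.5 for ILCP minus CLP and -14.5 to -7.83 for their sum, none past 0.05. The intervals open in NKT and not CD4SP numbered 1 with an equal number and with the higher-scoring 50%, 4 when any library sufficed and 0 to 4 with a library left out. Those open in CD4SP and not NKT numbered 4, 4, 5 and 0 to 3 in the same order, and 1 where peaks had to cover 50% of an interval. Those open in CLP and not ILCP numbered 2 with the higher-scoring 50%, 15 when any library sufficed and 5 to 11 with a library left out, and those open in ILCP and not CLP numbered 2 with an equal number and with 5 kb windows, 4 with the higher-scoring 50% and when any library sufficed, and 3 to 4 with a library left out.

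Single genes turned direction in windows whose difference was small and not called. With an equal number of peaks, thymic minus marrow was -2.2 for Il4ra and -1.9 for Il21r, and Il7r in NKT and ILCP against controls was 1. With the higher-scoring 50% these were -1.45, -0.95 and 0.833, and Il2ra in ILCP minus CLP was -0.833. With 5 kb windows Il2ra in ILCP minus CLP was -0.5 and Il7r against controls 0.5. In base pairs, ILCP minus CLP was -312 for Il7r and -1711 for Il2ra, and per 10000 peaks Il7r against controls was 0.254. With each library left out in turn, NKT and ILCP against controls ranged from -1.33 to 0.667 for Il2rb and from -1.67 to 1.33 for Il7r, and for Il7r NKT minus CD4SP ranged from -2 to 1 and ILCP minus CLP from -0.667 to 1.33. By order number, tried after seeing the data, no rank difference between groups that did not overlap changed sign, and the calls at Il2ra +10.8 kb and Il4ra +36.8 kb (thymic against marrow) were lost, at p = 0.238 and 0.103 (exact permutation test).

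The replicate block exchanged labels only between libraries of the same number. It kept the difference of 9.3, and the call was lost (p = 0.111, exact permutation test). The other comparisons over all windows had no call to lose. There the block allows too few arrangements for p to reach 0.05, so it could not change them. The sources used here do not say whether the numbers pair the libraries. Deviations across 17708 genes correlated at 0.405 between same-numbered thymic libraries and at -0.0537 and -0.0449 between same-numbered marrow libraries. Same-numbered thymic libraries thus varied together, and whether they shared a batch was not tested. The reads behind each list are given in the methods only as a range over libraries, and the 19343 peaks of CLP replicate 1 limit what an absent peak can show there.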
